A study of Homo sapiens with 12 samples.

Results

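DHRS2, LRRC49, ZNF300, SLC5A1 and FCGBP were followed here as genes whose transcripts were higher in HCC1806 cells depleted of PACT and changed less, or not in the same direction, in MDA-MB-468 cells. The 5 genes were picked by name from earlier results of the same libraries, among 27029 genes tested and 57500 in the table, so their depletion values below are a description with no test. All 5 were among the 27 genes whose response was lower in MDA-MB-468 than in HCC1806, 0.0999% of those tested. This restates how they were picked and is no result. HCC1806 and MDA-MB-468 are established lines from triple-negative breast cancers. Total RNA was sequenced from 12 libraries, 3 each of HCC1806 with the control guide sgC1, HCC1806 with the guide sgPACT-2, MDA-MB-468 with the control guide sgNTA, and MDA-MB-468 with sgPACT-2. The guides act through CRISPR-Cas9, and sgPACT-2 targets PRKRA, the gene of PACT, a protein that binds double-stranded RNA and acts on the kinase PKR. Judging by its title, the study is about PACT as a brake on PKR, and the comparison asks how each line's transcripts differ without it.

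The genes belong to different parts of the cell. DHRS2 is a short-chain dehydrogenase/reductase, an enzyme that reduces carbonyl compounds with NADPH. LRRC49 is a leucine-rich repeat subunit of the tubulin polyglutamylase complex, which adds glutamate chains to microtubules. ZNF300 is a zinc finger protein of the KRAB class, nuclear proteins that bind DNA and mostly repress. SLC5A1, known as SGLT1, carries glucose into cells together with sodium and is best known from the intestinal brush border. FCGBP is a large secreted protein of mucus made by goblet cells, named for its binding of the Fc part of IgG.

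RefSeq start sites were matched for 5 of 5 genes, with 2 starts for LRRC49, and the promoters (250 bases before to 50 after the start, build GRCh38.p14) are shown because genes with a like response began in unlike sequence. The DHRS2 promoter held 0 CpG dinucleotides, against a median of 14 over 35116 promoters. FCGBP held 4 CpG, the LRRC49 starts 8 and 12, ZNF300 15 and SLC5A1 17. Capitals mark the matches to searched motifs, which were chosen after the sequences had been seen: the TATA motif TATAAA, the CCAAT box CCAAT, the GC box GGGCGG, the CHOP and ATF4 element TGATGCAA, the cyclic AMP element TGACGTCA, the AP-1 motif TGANTCA and the NF-kappaB motif, each on both strands and none overlapping another here. Apart from the 30 bases around the LRRC49 match TGATGCAA, which reach into the annotated gene, stretches in an annotated exon are not printed. This leaves out SLC5A1 and the other LRRC49 start. The ranges were chr14:23629865-23630114 (plus strand) for DHRS2, chr15:70853128-70853238 (plus strand) for LRRC49, chr5:150904984-150905230 (minus strand) for ZNF300, chr19:39934635-39934884 (minus strand) for FCGBP and chr15:70853235-70853264 for 30 bases around the LRRC49 match.
DHRS2: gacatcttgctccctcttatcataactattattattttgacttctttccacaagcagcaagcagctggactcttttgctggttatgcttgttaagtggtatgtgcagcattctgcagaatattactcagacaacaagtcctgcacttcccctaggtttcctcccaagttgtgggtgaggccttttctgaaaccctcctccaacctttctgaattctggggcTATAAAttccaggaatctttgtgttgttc
LRRC49: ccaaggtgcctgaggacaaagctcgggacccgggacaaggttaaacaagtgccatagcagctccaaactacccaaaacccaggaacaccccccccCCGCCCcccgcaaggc
LRRC49 site: aggcagcaagaTGATGCAAacataaaggtc
ZNF300: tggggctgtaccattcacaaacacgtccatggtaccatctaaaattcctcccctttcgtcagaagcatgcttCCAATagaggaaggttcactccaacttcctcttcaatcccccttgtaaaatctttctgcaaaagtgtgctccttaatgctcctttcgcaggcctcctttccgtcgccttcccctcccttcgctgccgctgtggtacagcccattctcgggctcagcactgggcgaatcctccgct
FCGBP: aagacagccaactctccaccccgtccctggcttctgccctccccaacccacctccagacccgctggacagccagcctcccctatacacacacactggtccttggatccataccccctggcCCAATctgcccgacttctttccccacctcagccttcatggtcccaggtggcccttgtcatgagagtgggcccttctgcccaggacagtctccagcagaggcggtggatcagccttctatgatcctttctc
The DHRS2 promoter carried TATAAA 29 to 24 bases before its start, a match found in 11.5% of all promoters. The first LRRC49 start had TGATGCAA, the letters of the element bound by CHOP and ATF4, 132 to 125 bases before it, found in 0.866% of promoters. It also had GGGCGG, as did SLC5A1 (45.0% of promoters), and CCAAT was in the other LRRC49 start, ZNF300 and FCGBP (34.6%). None of the 6 promoters held TGACGTCA (1.85%), TGANTCA (7.71%) or the NF-kappaB motif (0.558%). These matches are letters in a window, with no measurement of binding.

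Library totals lay between 18640633 and 24704877 counts for HCC1806 and between 34581754 and 44790741 for MDA-MB-468. In HCC1806 the level of PRKRA, as TMM-scaled CPM (reads of a gene relative to library size; mean ± SD, n = 3), was 77.8 ± 5.30 with the control guide and fell to 36.9 ± 0.774 after depletion. That is -1.07 on the log2 scale (SE 0.10, edgeR quasi-likelihood adjusted p = 1.7e-05), and 2.49% of all tested genes passed in that line. In MDA-MB-468 it was 44.7 ± 3.12 and 38.8 ± 3.09 CPM (log2 fold change -0.20, SE 0.10, adjusted p = 0.958), and the difference between these responses passed the test (adjusted p = 0.0198). A fall of the targeted transcript was therefore not shown in MDA-MB-468, and PACT protein was not analysed here, so "depleted" names the guide in that line and unequal depletion cannot be told apart from an unequal response. Leaving out PACT-depleted replicate 1 of HCC1806 raised the genes called in that line from 672 to 1792, more than any other library did, so values without it are given below. The epithelial markers EPCAM and CDH1 were present in all groups, at mean CPM of 135 to 197 and 237 to 412, PGR was at or under 0.160 CPM, ESR1 at 6.67 to 20.9 and ERBB2 at 129 to 194. The sum of the 8 epithelial markers was 2998 to 3415 CPM in HCC1806 controls and 2284 to 2690 after depletion, without overlap, and 12197 to 12461 and 12515 to 14003 in MDA-MB-468. The 8 did not move alike in HCC1806: KRT17 was higher after depletion (17.0 to 21.2 against 25.8 to 31.4 CPM), and KRT8, KRT18 and KRT14 overlapped. The 3 receptors summed to 200.4 to 232 and 166 to 181 CPM in HCC1806, also without overlap, and to 143 to 152 and 131 to 139 in MDA-MB-468. The share of all tested genes that were lower without overlap in depleted HCC1806 was not counted. The leukocyte markers PTPRC, CD3E and LYZ were at or under 0.335 CPM in every group. CD14 was at 98.7 CPM in MDA-MB-468 controls and 1.66 in those of HCC1806. The 3 endothelial markers reached 1.42 to 4.02 CPM over all libraries. The summed CPM of the 5 fibroblast markers, mostly COL1A1, was between 31.1 and 54.8 in HCC1806 libraries and between 17.3 and 21.8 in those of MDA-MB-468. The part of these markers in the results was not tested. Because sgC1 was used in HCC1806 and sgNTA in MDA-MB-468, effects of line and of control guide cannot be told apart. The labels do not say whether replicates were separate cultures, so p-values measure only the spread between these libraries. In bulk RNA, more expressing cells and more RNA per cell cannot be told apart.

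DHRS2 (ENSG00000100867, GRCh38 chromosome 14, 23630115 to 23645639, plus strand) had the highest level per length of the 5 in depleted HCC1806, 3.40 ± 0.766 CPM per kilobase of exon. Its counts in HCC1806 were 90, 73 and 83 with the control guide and 608, 440 and 845 after depletion, or 3.75, 3.27 and 3.52 against 29.8, 19.1 and 28.2 CPM. Every depleted library lay far above every control library, and depleted replicate 2 was the lowest of its group. In MDA-MB-468 the counts were 70, 56 and 80 with the control guide and 122, 138 and 109 after depletion, a mean of 1.88 ± 0.158 against 3.66 ± 0.429 CPM. These groups did not overlap either, so DHRS2 was higher after depletion in both lines, by a ratio of summed CPM-scaled counts of 7.33 (95% exact interval 6.41 to 8.40) in HCC1806. In MDA-MB-468 the ratio was 1.93 (1.63 to 2.30). Such intervals cover counting error only. The fitted log2 fold changes were 2.87 (SE 0.19) and 0.95 (SE 0.20), and 2.75 in HCC1806 without depleted replicate 1. The level after depletion in MDA-MB-468 overlapped the control level of HCC1806, and the level in depleted HCC1806 was 13.6 times that of MDA-MB-468 controls.

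LRRC49 (ENSG00000137821, chromosome 15, 70853239 to 71053657, plus strand) had nearly the same pattern at a lower level per length, 1.54 ± 0.145 CPM per kilobase in depleted HCC1806. Counts in HCC1806 were 74, 81 and 83 with the control guide and 347, 327 and 451 after depletion, or 3.09, 3.63 and 3.52 against 17.0, 14.2 and 15.1 CPM. The groups did not overlap, and the depleted libraries spread by 1.45 CPM (SD) around 15.4. Counts in MDA-MB-468 were 61, 64 and 101 with the control guide and 92, 92 and 95 after depletion, or 1.70, 1.95 and 2.52 against 2.62, 2.77 and 2.92 CPM. The 3 depleted libraries lay above the 3 controls, but the nearest pair differed by less than the SD of the controls (0.421 CPM). In HCC1806 the ratio was 4.50 (3.91 to 5.20), against 1.33 (1.11 to 1.59) for MDA-MB-468, with log2 fold changes of 2.17 (SE 0.19; 2.10 without depleted replicate 1) and 0.43 (SE 0.19). From high to low, the groups ran depleted HCC1806, control HCC1806, depleted MDA-MB-468 and control MDA-MB-468, with no overlap between neighbours in that order. Centred on their means over the 12 libraries, the log2 CPM profiles of LRRC49 and DHRS2 differed by a root mean square of 0.37, the closest pair among the 5 genes, and other pairs differed by 0.88 to 4.78.

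**Figure D1:**
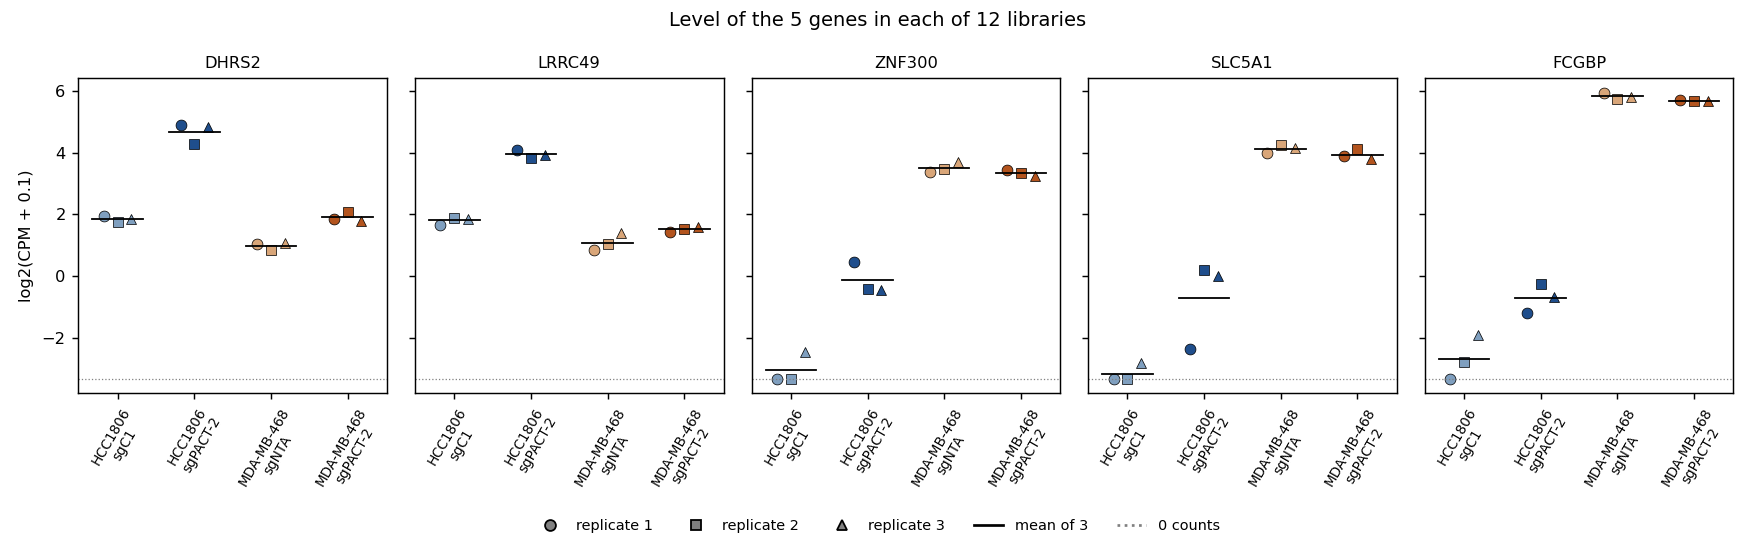
Level of the 5 genes in each of 12 libraries, as log2 of CPM plus 0.1, by line and guide; marker shapes are replicates, bars are means of 3 and the dotted line is 0 counts. DHRS2 and LRRC49 are counted in both lines with the control guide, at 3.51 and 3.41 CPM in HCC1806 and 1.88 and 2.06 in MDA-MB-468, whereas ZNF300, SLC5A1 and FCGBP are near 0 counts in HCC1806 controls and high in MDA-MB-468 with either guide.

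ZNF300, SLC5A1 and FCGBP formed another kind, nearly silent in HCC1806 controls and expressed in MDA-MB-468. ZNF300 (ENSG00000145908, chromosome 5, 150894392 to 150904983, minus strand) had 0, 0 and 2 counts in HCC1806 controls and 26, 15 and 19 after depletion, or 1.27, 0.650 and 0.634 CPM. All 3 depleted libraries exceeded the floor of 3 counts and all 3 controls did not. The ratio was 28.6, with an interval of 7.57 to 241 because it rests on 60 counts against 2. In MDA-MB-468 the levels were 10.2, 11.0 and 12.7 CPM with the control guide and 10.8, 10.0 and 9.38 after depletion, overlapping groups with a log2 fold change of -0.17 (SE 0.22). Depleted HCC1806 reached 7.18% of the MDA-MB-468 control level.

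SLC5A1 (ENSG00000100170, chromosome 22, 32043032 to 32113029, plus strand) had 0, 0 and 1 counts in HCC1806 controls and 2, 24 and 27 after depletion. Depleted replicate 1, with 2 counts, stayed at or under the floor like the controls, and replicates 2 and 3, at 1.04 and 0.901 CPM, held nearly all of the counts. The ratio of 50.5 (8.67 to 2031) rests on 53 counts against 1. In MDA-MB-468 the levels were 15.7, 18.9 and 17.6 CPM with the control guide and 14.8, 17.1 and 13.9 after depletion. These groups overlapped, with a log2 fold change of -0.19 (SE 0.25). Depleted HCC1806 reached 4.16% of the MDA-MB-468 control level.

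FCGBP (ENSG00000275395, chromosome 19, 39863323 to 39934626, minus strand) had 0, 1 and 4 counts in HCC1806 controls and 7, 17 and 16 after depletion, or 0, 0.0448 and 0.169 against 0.343, 0.737 and 0.534 CPM. The groups did not overlap, and the ratio was 7.62 (3.01 to 24.7), from 40 counts against 5. In MDA-MB-468 the levels were 61.0, 53.1 and 55.8 CPM with the control guide and 51.3, 50.2 and 50.4 after depletion. There the depleted libraries lay below the controls, with a log2 fold change of -0.16 (SE 0.14). FCGBP had the highest level per length of the 5 genes in MDA-MB-468 controls, 4.37 ± 0.311 CPM per kilobase of exon, and the depleted HCC1806 libraries reached 0.961% of its CPM there. Fitted log2 fold changes in HCC1806 were 4.67 (SE 0.63) for ZNF300, 5.27 (SE 0.92) for SLC5A1 and 2.86 (SE 0.53) for FCGBP, and without depleted replicate 1 they were 4.30, 5.71 and 3.05. Fitted values this close to 0 counts depend on the prior count and on control replicate 3, which held most of the control counts. Without that library they were 7.62, 7.40 and 4.40, and with a prior count of 2 those of ZNF300 and SLC5A1 were 3.22 and 3.24.

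**Figure D2:**
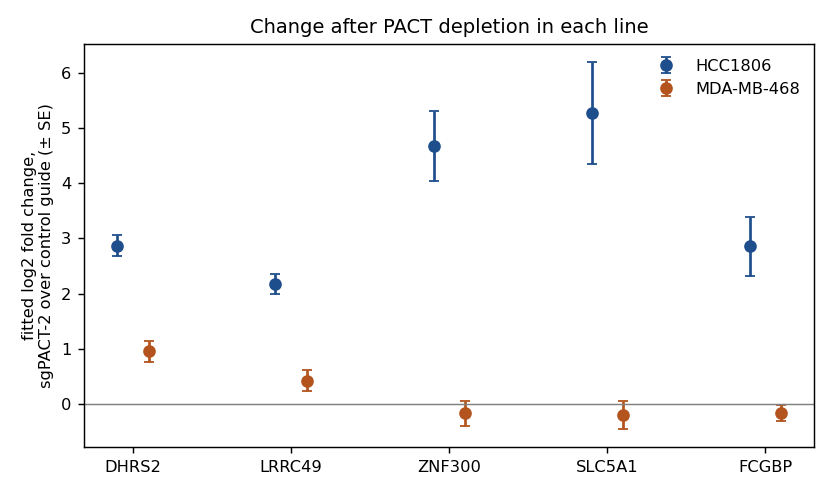
Fitted log2 fold change of sgPACT-2 over the control guide (± SE, 3 libraries a group) for the 5 genes in HCC1806 and MDA-MB-468. The HCC1806 values run from 2.17 to 5.27, and the MDA-MB-468 values lie near 0 for ZNF300, SLC5A1 and FCGBP and at 0.95 and 0.43 for DHRS2 and LRRC49.

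Counting by library, all 5 genes had 3 depleted HCC1806 libraries above the 3 controls, as did 8.51% of all tested genes. In MDA-MB-468, 2 of the 5 had depleted libraries above the controls (6.20% of tested genes) and 1 had them below (6.94%). These counts use the values by which the genes were picked and carry no weight as a result. Against their control means on the log2 CPM scale (prior count 2), the depleted HCC1806 libraries did not rank the genes alike. Replicate 1 was the highest for DHRS2, LRRC49 and ZNF300 (3.06, 2.30 and 3.91) and the lowest for SLC5A1 and FCGBP (1.05 and 1.75). Replicate 2 was the highest for SLC5A1 and FCGBP (3.79 and 2.72) and the lowest for DHRS2 and LRRC49 (2.42 and 2.04). Among the 314 genes called higher in HCC1806, ordered by fold change, SLC5A1 was at place 10 and ZNF300 at 17. DHRS2 was at 38, FCGBP at 40 and LRRC49 at 58. This order also uses the values by which the genes were picked and carries no weight as a result. The places of SLC5A1 and ZNF300 rest on 1 and 2 summed control counts.

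Averaged over both guides, which includes the depleted HCC1806 values by which the genes were picked, DHRS2 and LRRC49 were lower in MDA-MB-468, with log2 differences of -1.85 (SE 0.14) and -1.60 (SE 0.13). ZNF300, SLC5A1 and FCGBP were higher there, by 6.01 (SE 0.27), 7.15 (SE 0.33) and 8.04 (SE 0.18). These values are a description with no test. For ZNF300, SLC5A1 and FCGBP all 6 MDA-MB-468 libraries lay above all 6 of HCC1806. The share of all tested genes separated in this way was not counted, so this is no result about these genes. The lines differ in most transcripts: 83.0% of all tested genes passed edgeR's test of this difference, 37.1% higher and 45.9% lower in MDA-MB-468. With control guides alone, DHRS2 in HCC1806 was 1.86 times (1.54 to 2.25) and LRRC49 1.64 times (1.36 to 1.97) its level in MDA-MB-468.

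The low counts of ZNF300, SLC5A1 and FCGBP in HCC1806 were set beside other genes of MDA-MB-468. The 100 most abundant other genes with a mean in HCC1806 under 1% of that in MDA-MB-468 summed to 0.215% to 0.236% of their MDA-MB-468 level in HCC1806 controls and to 0.264% to 0.283% in depleted libraries. In the depleted libraries ZNF300 was at 11.9%, 6.08% and 5.93% of its MDA-MB-468 level, SLC5A1 at 0.600%, 6.37% and 5.52%, and FCGBP at 0.639%, 1.37% and 0.996%. The highest of the 100 reached 2.20% to 2.51%, but these genes were limited to a mean under 1%, which ZNF300 and SLC5A1 exceed through the values by which they were picked, so their place above the 100 is no result. The median gene of the 100 was at 0.0936% to 0.122% in controls and 0.135% to 0.164% in depleted libraries, each depleted library being above each control. The part of that shift in the FCGBP counts was not tested.

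**Figure D3:**
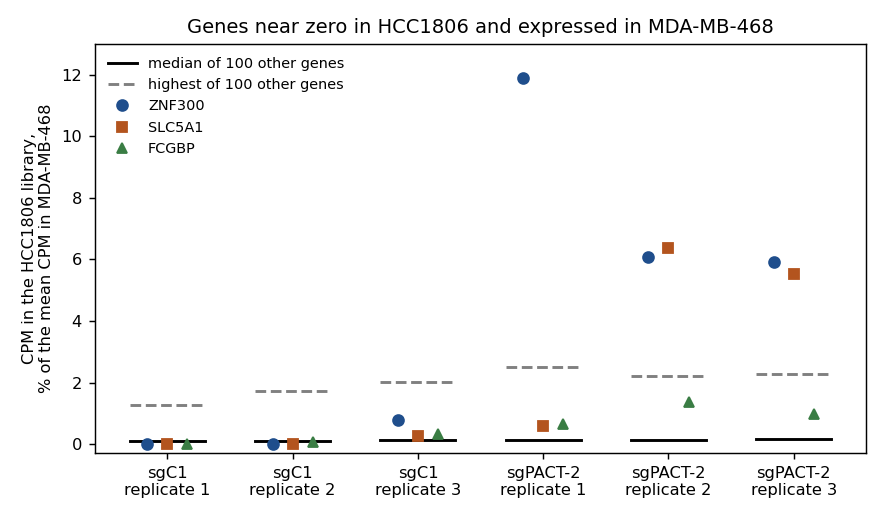
CPM of ZNF300, SLC5A1 and FCGBP in each HCC1806 library as a percent of their mean CPM in MDA-MB-468, with the median (solid) and highest (dashed) of 100 other genes that are abundant in MDA-MB-468 and under 1% of that in HCC1806. With sgPACT-2, ZNF300 is at 5.93% to 11.9%, SLC5A1 at 0.600% to 6.37% and FCGBP at 0.639% to 1.37%; the dashed level is limited by how the 100 genes were chosen and is no test.

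Other genes near 0 counts in HCC1806 and present in MDA-MB-468 were counted in the same way. At most 3 counts in each HCC1806 control library and a mean of at least 5 CPM in MDA-MB-468 controls were found for 121 genes. After depletion 4 of them summed to at least 30 counts: ZNF300, SLC5A1, VLDLR-AS1 (33 counts) and CMAHP (30 counts), of which VLDLR-AS1 is an antisense RNA and CMAHP a pseudogene, both uncertain. With the arms exchanged, 97 genes were at the floor in the depleted libraries and 0 of them summed to 30 counts in the controls. With a floor of 1 count, 1 of 80 genes remained on this list, SLC5A1, and 0 of 63 with the arms exchanged. That ZNF300 and SLC5A1 are listed restates how they were picked. Of the 121 genes, 80 were at or under 3 counts in every library of both arms.

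Transcripts around the genes were read from the 2 nearest genes on each side, 20 in all, of which 10 were tested. In HCC1806 3 rose and 0 fell, and 1.16% of all tested genes rose. All 3 lie across LRRC49 or ZNF300, which were picked for rising there, so the count carries no weight as a result. IRGM, KRT8P9, AC009269.4 and JPH4 passed the count filter only through the depleted HCC1806 group, so that share is no fair background. LARP6, an RNA-binding protein of collagen mRNAs, and THAP10, a DNA-binding protein with a THAP domain, are on the opposite strand to LRRC49 with overlapping exons. LARP6 was 11.8, 11.0 and 9.19 CPM in HCC1806 controls and 13.6, 23.6 and 23.1 after depletion, groups that did not overlap, with depleted replicate 1 near the controls. The fitted log2 difference of LARP6 was 0.92 (SE 0.19, edgeR quasi-likelihood adjusted p = 0.0158), and the call was lost without control replicate 3 (adjusted p = 0.0603), without depleted replicate 2 (0.0685) and with the line fitted alone (0.138). In MDA-MB-468 LARP6 was 8.55, 9.43 and 8.76 CPM with the control guide and 15.6, 12.2 and 16.3 after depletion (log2 fold change 0.72, SE 0.19, adjusted p = 0.252).

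THAP10 was 1.42, 0.985 and 1.82 CPM in HCC1806 controls and 3.82, 3.38 and 3.67 after depletion. These groups did not overlap, and the fitted log2 difference was 1.36 (SE 0.26, adjusted p = 0.0111; 0.0951 with the line fitted alone), and 0.11 (SE 0.23) in MDA-MB-468. IRGM, a GTPase of autophagy and immunity, lies on the strand opposite ZNF300, with no exon in common. It had 0 counts in all 3 HCC1806 controls and 20, 20 and 42 after depletion, at least 8.68-fold higher against a floor of 3 counts per library. Its edgeR adjusted p of 0.00153 carries no weight, because IRGM entered the test only through these depleted counts. In MDA-MB-468 it had 2, 2 and 6 counts with the control guide and 6, 6 and 3 after depletion, so IRGM was low where ZNF300 was abundant. The test of the difference between the lines did not pass for LARP6, THAP10 or IRGM (adjusted p = 0.909, 0.244 and 0.0879), and that of IRGM again carries no weight. KRT8P9, a keratin pseudogene inside LRRC49 on its strand, had 7, 3 and 0 counts in HCC1806 controls, 39, 17 and 34 after depletion and 0 in all MDA-MB-468 libraries. Its edgeR adjusted p of 0.0809 in HCC1806 carries no weight either, because KRT8P9 entered the test only through the depleted counts. The strand setting of the counting is not given in the sources used here, so reads from exon stretches that LRRC49 shares with LARP6 and THAP10 cannot be told apart. ZNF300 and IRGM share no exon in GENCODE 29, nor do LRRC49 and KRT8P9, but the annotation release used for counting is not given. Sharing of reads in these pairs was not tested.

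**Figure D4:**
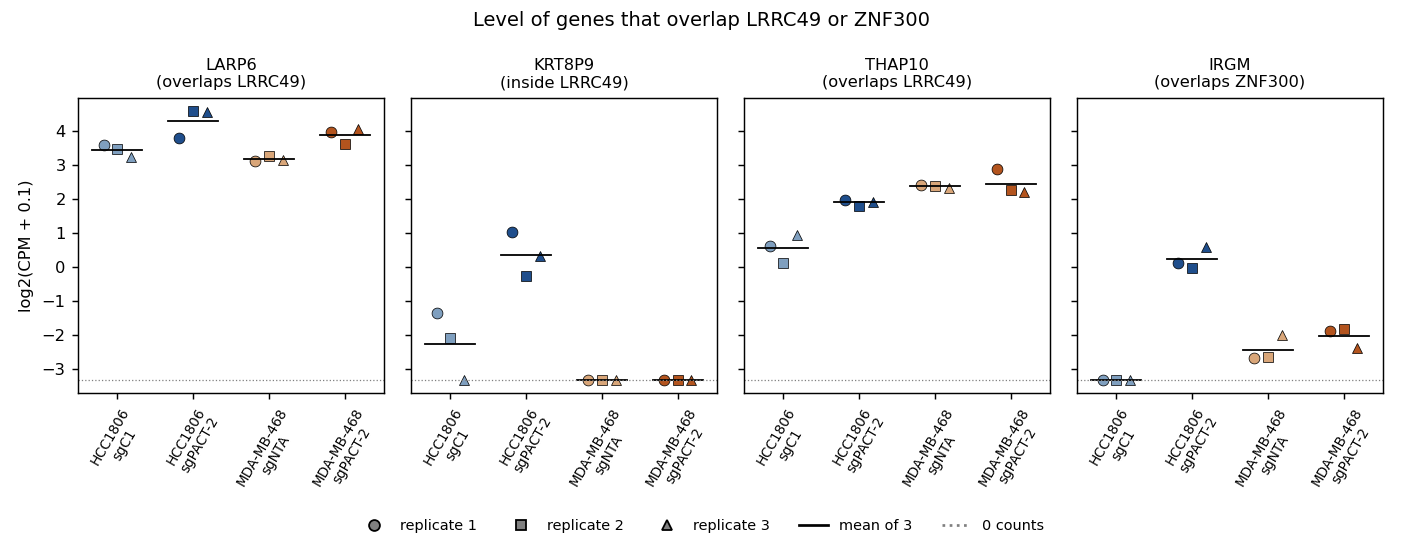
Level of LARP6, KRT8P9, THAP10 and IRGM, the genes that overlap LRRC49 or ZNF300, in each of 12 libraries as log2 of CPM plus 0.1; shapes are replicates and bars are means of 3. IRGM is at 0 counts in all HCC1806 controls and at 20 to 42 counts after depletion, and LARP6 is higher after depletion in both lines while only its HCC1806 difference passed the test.

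No tested neighbour of DHRS2 or FCGBP passed in HCC1806, and those of SLC5A1 had too few counts to be tested. JPH4, a junctophilin beside DHRS2, went from 15 to 69 summed counts, 47 of them in depleted replicate 3 (log2 fold change 1.99, SE 0.84, adjusted p = 0.270). That p carries no weight, because JPH4 entered the test only through the depleted HCC1806 group. The pseudogenes past the end of SLC5A1 had few counts: AP1B1P1 had 0 in each control and 6, 0 and 7 after depletion, and Z83839.1 had 0 in each control and 0, 5 and 4. FBL, the methyltransferase of box C/D small nucleolar RNPs, and PSMC4, a proteasome ATPase, flank FCGBP, with log2 fold changes of -0.27 (SE 0.12, adjusted p = 0.305) and -0.05 (SE 0.21, adjusted p = 0.965). SMIM3, on the far side of IRGM from ZNF300, was at 0.01 (SE 0.31).

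Relatives and partners of the 5 genes were read from lists that leave the genes themselves out. Of 34 tested short-chain dehydrogenase/reductase genes, relatives of DHRS2, 0 rose and 1 fell in HCC1806 by edgeR's quasi-likelihood test (at an unadjusted p under 0.05, 0 rose and 5 fell; by DESeq2, 0 rose and 2 fell). Of all tested genes, 1.32% fell by the adjusted edgeR test. Unadjusted, 3909 of 27029 tested genes passed in HCC1806 and 1424 in MDA-MB-468, both directions together. Background shares by direction are not given for unadjusted or DESeq2 counts, here or for the lists below. Those counts are therefore no result about a list. The median log2 fold change of the 34 was -0.13, against 0.01 over all tested genes. CBR1, a carbonyl reductase, was the gene that fell, from 52.2, 42.9 and 41.6 to 37.8, 30.7 and 24.5 CPM (log2 fold change -0.56, SE 0.14, adjusted p = 0.0441). The call on CBR1 held when control replicate 3 or depleted replicate 1 of HCC1806 was left out and was lost without any other library, with adjusted p up to 0.165, and it was 0.232 with the line fitted alone. Without depleted replicate 1, 4 of these genes fell, while calls over all tested genes went from 672 to 1792, both directions together. SPR, sepiapterin reductase, and HSD17B12 had values of -0.52 (SE 0.14, adjusted p = 0.0565) and -0.50 (SE 0.17, adjusted p = 0.157). In MDA-MB-468 0 of the 34 passed, as against 0.170% of all tested genes. Unadjusted, 1 rose and 0 fell there, and DESeq2 called 0.

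Of 17 tested genes listed for tubulin glutamylation and its removal, not all of them known to have that activity, 0 passed in HCC1806 and 0 in MDA-MB-468. Unadjusted, 0 rose and 2 fell in HCC1806 and 0 passed in MDA-MB-468, and DESeq2 called 0 in each line. Of all tested genes, 2.49% passed in HCC1806 and 0.170% in MDA-MB-468, so 0 of 17 is near that share and says little of these genes. Their medians were -0.13 and 0.00. In HCC1806 TPGS2, another subunit of the complex, was at -0.30 (log2 fold change, SE 0.11, adjusted p = 0.202) and TTLL12 at -0.27 (SE 0.13, adjusted p = 0.339).

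Of 8 tested SLC5 transporters, relatives of SLC5A1, 0 passed in HCC1806 and 0 in MDA-MB-468. Unadjusted, 0 passed in HCC1806, 0 rose and 1 fell in MDA-MB-468, and DESeq2 called 0 in each line. With 2.49% of all tested genes called in HCC1806 and 0.170% in MDA-MB-468, 0 of 8 is near that share and says little of these transporters. Of 16 tested genes of mucus and goblet cells, set beside FCGBP, 0 rose and 1 fell in HCC1806, with a median of 0.46. Unadjusted, 1 rose and 1 fell there, and by DESeq2 0 rose and 1 fell. Of all tested genes, 1.16% rose and 1.32% fell in HCC1806, and 16 genes are too few to compare with these shares. In MDA-MB-468 0 passed (unadjusted, 0 rose and 1 fell; DESeq2, 0), with a median of -0.18. CLCA2, which is known from basal epithelium rather than from goblet cells, was the gene that fell (log2 fold change -0.77, SE 0.19, adjusted p = 0.0365). Its call was lost in 9 of 20 alternatives, among them without HCC1806 control replicate 1 (adjusted p = 0.172) or 2 (0.0702), depleted replicate 2 (0.0757) or 3 (0.108), and MDA-MB-468 control replicate 3 or depleted replicate 2 or 3 (up to 0.0560).

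Numbered ZNF genes, relatives of ZNF300 in name and mostly in structure, were the list with calls upward. Of 456 tested, 15 rose and 0 fell in HCC1806, or 3.29% against 1.16% of all tested genes, with a median of 0.05. Unadjusted, 65 rose and 14 fell, and 3909 of 27029 tested genes passed in either direction. By DESeq2, 25 rose and 1 fell. The adjusted edgeR count moved from 4 without control replicate 2 to 24 without depleted replicate 1, of which 22 rose, and was 1 with the line fitted alone. It was 7 without control replicate 1, 8 without control replicate 3, 9 without depleted replicate 3, and 7, 8 and 8 without MDA-MB-468 control replicates 1, 2 and 3. Calls over all tested genes moved as well, from 672 to 1792 without depleted replicate 1 and to 74 with the line fitted alone. A higher count of ZNF genes in a setting is therefore not a higher share. ZNF844, ZNF436 and ZNF555 had the smallest adjusted p, with log2 fold changes of 1.13 (SE 0.16, adjusted p = 0.00106), 0.63 (SE 0.11, adjusted p = 0.00419) and 0.99 (SE 0.19, adjusted p = 0.0127). With the line fitted alone those of ZNF436 and ZNF555 were 0.103 and 0.0783, and that of ZNF555 was 0.0531 without control replicate 2. In MDA-MB-468, 2 rose and 0 fell (0.439% against 0.170% of all tested genes that rose; unadjusted, 29 rose and 5 fell; DESeq2, 6 rose and 0 fell). These were ZNF699 (1.43, SE 0.21, adjusted p = 0.00480; 0.0502 without control replicate 2) and ZNF442 (1.81, SE 0.31, adjusted p = 0.0185). The call on ZNF442 was lost without control replicate 1 or 3 (adjusted p = 0.128 and 0.166) or depleted replicate 2 or 3 (0.0653 and 0.132), and each of these 5 removals left 1 of the 2. Against 0.122% of all tested genes (0.0222% higher in MDA-MB-468 and 0.0999% lower), 0 in any list passed the test of a different response between the lines. Unadjusted, 14 ZNF genes were higher and 28 lower there, and 2269 of 27029 tested genes passed in either direction.

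**Figure D5:**
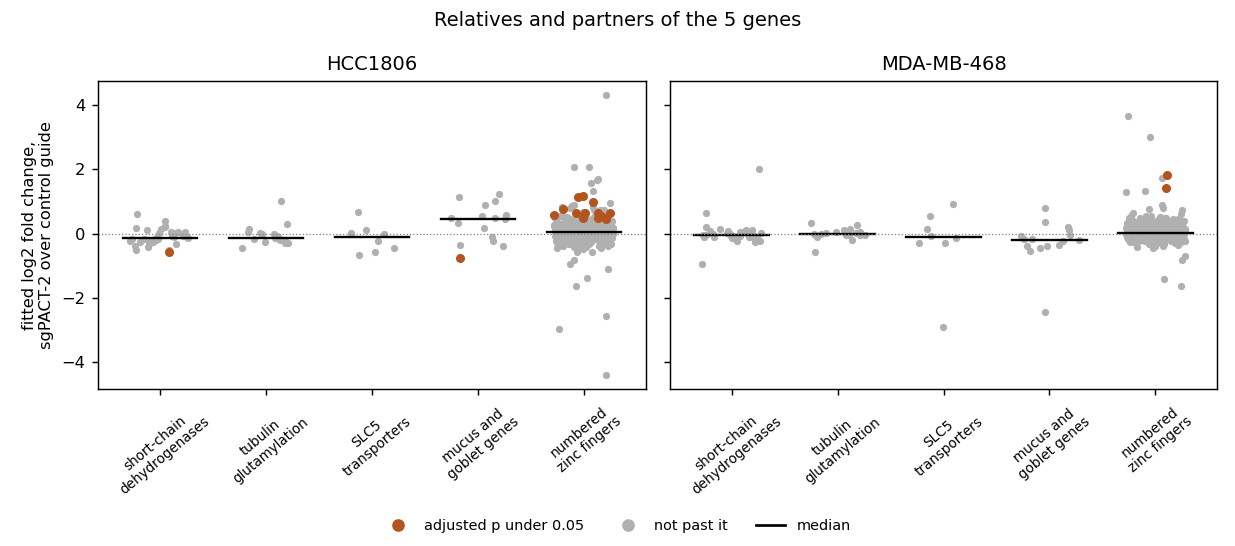
Fitted log2 fold change of each tested relative or partner of the 5 genes in HCC1806 and MDA-MB-468, with list medians as bars and genes at an adjusted p under 0.05 in orange. Orange points above 0 are all in the zinc finger list, 15 in HCC1806 and 2 in MDA-MB-468.

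Genes with the most similar pattern were sought among 17999 tested genes that averaged 50 counts or more in some group, by the root mean square difference of centred log2 CPM over the 12 libraries. Those near DHRS2 included PPP1R15A (0.63), the stress-induced subunit of the eIF2alpha phosphatase, and the ribosomal pseudogene RPLP0P2 (0.65). The centred DHRS2 profile itself had a root mean square of 1.40. PPP1R15A went from 123 ± 16.3 to 318 ± 9.57 CPM in HCC1806 and from 55.0 ± 7.37 to 127 ± 15.0 in MDA-MB-468. Its log2 fold changes were 1.37 (SE 0.12) and 1.20 (SE 0.12), against 2.87 and 0.95 for DHRS2, so its rise was not selective for HCC1806. For LRRC49 they were the antisense RNA RGMB-AS1 (0.43), NFKB2 (0.46), a subunit of NF-kappaB, and RPLP0P2 (0.46). NFKB2 went from 59.3 ± 4.21 to 146 ± 16.5 CPM in HCC1806 and from 37.0 ± 2.94 to 57.4 ± 4.78 in MDA-MB-468.

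The nearest genes to ZNF300, SLC5A1 and FCGBP shared the gap between the lines. For ZNF300 they were PALM2-AKAP2 (0.65), VLDLR-AS1 (0.71) and ICA1 (0.75), an islet autoantigen that went from 0.255 ± 0.150 to 1.36 ± 0.439 CPM in HCC1806 and was 58.3 and 58.9 in MDA-MB-468. For SLC5A1 they were C9orf152 (0.68), CCL22 (0.76), a chemokine, and PALM2 (0.78). CCL22 went from 0.211 ± 0.147 to 0.887 ± 0.630 CPM in HCC1806, with 4 counts in its lowest depleted library and 33 in its highest, and was 69.1 and 60.6 in MDA-MB-468. For FCGBP they were CLIC5 (0.57), FAM49A (0.58) and the pseudogene CMAHP (0.59). PALM2 and PALM2-AKAP2 share a locus and their counts are uncertain. With a prior count of 0.5 in place of 2, all 3 named genes stayed for LRRC49, 2 of 3 for ZNF300, 2 for SLC5A1 and 1 for FCGBP.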

How the data were processed

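The authors deposited a table of raw read counts by Ensembl gene and library, with no scaling applied. Per the submitters' processing notes, the tools were Trimmomatic 0.36, STAR 2.5.2b and featureCounts (Subread 1.5.2) on GRCh38. The strand setting and annotation release are not given in the sources used here. Per the labels, RNA was DNase-treated and depleted of rRNA. Genes with no name in the table held 0.0284% of counts and were kept. Coordinates come from GENCODE 29 and promoters from RefSeq (GRCh38.p14).

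edgeR 4.0.16 in R 4.3.3 (filterByExpr, TMM) fitted 1 quasi-likelihood model to all 12 libraries with 1 coefficient per group and a biological coefficient of variation of 0.171. P-values are two-sided and adjusted by Benjamini-Hochberg over 27029 of 44375 genes with a count, and a gene was called at an adjusted p under 0.05. CPM are TMM-scaled. Ratios use summed counts over summed scaled library sizes, with exact 95% Clopper-Pearson limits, and the floor was 3 counts per library. The smallest library held 18640633 counts.

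The 5 genes were described in all 12 libraries. Named besides them were PRKRA, the 2 nearest genes on each side, the 3 most similar genes, genes past a count limit at the floor, and up to 3 genes of each list with the smallest adjusted p in each line. Some results under these rules are not reported here. The genes and lists were chosen with earlier results of these data known, and the motifs after the sequences were seen. Alternatives were RLE size factors, library size only, DESeq2 1.42.0, no filter, a mean of at least 50 counts, a replicate block, a prior count of 2, each line fitted alone and leaving out each library. The model was tested on simulated data. Figures were drawn with matplotlib 3.10.9 in Python 3.11.15.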

Additional observations from a re-analysis of the deposited data

How the results depend on the processing

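All 293 recomputed depletion and between-line values of the 5 genes kept their direction, 10 moved by more than 1 SD and 0 reversed; each such move came from the prior count or from leaving out HCC1806 control replicate 3. Genes called in HCC1806 numbered 672, against 1245 by DESeq2, 1351 with no filter, 74 with the line fitted alone and 301 to 1792 with a library left out (without control replicate 1 and without depleted replicate 1). In MDA-MB-468 they numbered 46, against 113, 143 and 323, and 19 to 98 with a library left out. For the difference in response they numbered 33, against 178 by DESeq2, 275 with no filter, and 9 to 168 with a library left out. For the line average they numbered 22436, and 13893 when a mean of at least 50 counts was required, since fewer genes were tested. DESeq2 gave no adjusted p for IRGM. The cause of the other moves was not tested.

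Same-numbered control and depleted libraries had correlations of their deviations of 0.231, 0.137 and 0.0771 in HCC1806 and 0.0284, 0.0156 and 0.0240 in MDA-MB-468, and control replicate 2 of HCC1806 correlated better with depleted replicate 3 (0.143). Every other different-numbered pair of HCC1806 had a negative correlation, between -0.223 and -0.0204. Deviations were taken from each group's mean, so a library's values with the other arm tend to balance around 0. The negative signs are therefore not separate from the positive same-numbered values. Different-numbered pairs of MDA-MB-468 lay between -0.0337 and 0.00985, below all same-numbered values of that line. Same-numbered libraries were thus mostly the more alike. The main fit did not take the numbers as pairs, and these correlations do not justify that choice. With the replicate block, 1947 genes were called in HCC1806, 102 in MDA-MB-468, 271 for the difference in response and 19443 for the line average. In that fit 6 short-chain dehydrogenases fell in HCC1806, and 28 ZNF genes rose and 4 fell. Calls over all tested genes in HCC1806 were also higher, 1947 against 672 in the main fit, both directions together. The larger list counts therefore do not show a stronger change in these lists. Depth limits ZNF300, SLC5A1 and FCGBP in HCC1806, which had 2, 1 and 5 counts over 3 control libraries.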
